A study of Mus musculus with 8 samples.

Results

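Genes of antibody production were followed in quadriceps RNA, 6 in all: Igkc, Jchain, Ighm, Ighg2b, Ighg2c and Mzb1. They are 6 of the 47643 genes in the deposited table, found by exact gene name, and all 6 reached the mean of 0.5 TPM used as a floor for testing, Ighg2b and Mzb1 only through Nup210+/+ replicate 4. They were chosen because of their values in the comparison of genotypes reported here, so their own differences are given as a description, without a test. The samples were 4 mice labelled Nup210-/- and 4 labelled Nup210+/+, C57BL/6 by their labels and backcrossed to C57BL/6J by the methods of the study, with 1 library per mouse. Nup210 encodes a membrane protein of the nuclear pore, and the Nup210-/- line lacks exon 2 in every tissue, after recombination of a floxed allele with Hprt-Cre. The deletion is therefore not limited to muscle fibers. The age and sex of the sequenced mice, and any treatment, are not given in the sources used here. Nup210 mRNA itself was not lower in the knockout libraries, at 8.81 to 11.93 TPM against 5.71 to 10.11 TPM in the wild type, so the gene-level values do not check the labels.

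An antibody is built from heavy and light chains. Each chain joins a variable (V) part, put together by rearrangement of gene segments in a B cell, to a constant part that sets its class. Igkc encodes the kappa light chain constant region, Ighm the constant region of IgM, and Ighg2b and Ighg2c those of IgG2b and IgG2c. Jchain links IgM and IgA units into polymers for secretion, and Mzb1 is a chaperone of the endoplasmic reticulum that helps antibody assembly in marginal zone B cells and plasma cells. Plasma cells are the antibody-secreting end stage of the B cell lineage and carry very large amounts of immunoglobulin mRNA, while resting skeletal muscle holds few of them.

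On GRCm38, Igkc (ENSMUSG00000076609) lies on the plus strand at chr6:70726435-70726966. Jchain (ENSMUSG00000067149) lies on the minus strand at chr5:88519809-88527891. The heavy chain genes share the minus strand of chromosome 12, Ighg2c (ENSMUSG00000076612) at chr12:113285325-113288932, Ighg2b (ENSMUSG00000076613) at chr12:113302965-113307933 and Ighm (ENSMUSG00000076617) at chr12:113418558-113422730. The exons of these 5 genes overlap those of no other gene in GENCODE M21.

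Because the IgG genes arose by duplication, it was asked how far a 75-base read, the length sequenced here, could tell the members apart. No 75-base window of Igkc, Jchain or Ighm transcripts occurred in transcripts of another gene. For Ighg2b the share was 0.768% of windows, shared with Ighg3 and Ighg2c, and for Ighg2c it was 0.480%, shared with Ighg2b. The longest run common to Ighg2b and Ighg2c has 78 bases and lies within exon 3 of both, in coding sequence, at chr12:113306869-113306946 and chr12:113287869-113287946. It is printed because reads from it cannot be assigned to either gene:

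Ighg2b and Ighg2c: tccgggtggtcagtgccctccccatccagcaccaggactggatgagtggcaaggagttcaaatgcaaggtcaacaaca

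Mzb1 (ENSMUSG00000024353) is the least certain member in this respect. Of its windows, 51.4% also occur in transcripts of a GENCODE M21 gene model named SPATA24. Reads could be divided between both models if both were quantified, and whether SPATA24 was part of the deposited quantification was not examined. A separate entry named Spata24, not found to share windows with Mzb1, was at 1.27 to 4.02 TPM in the knockout and 0.71 to 6.75 TPM in the wild type.

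Jchain is the only member with an entry among the RefSeq promoter windows of GRCm38.p6 used here. The 300 bases around its start lie at chr5:88527848-88528147 on the minus strand. They are shown because Jchain is driven by a promoter of its own and is not a rearranged gene. Capitals mark 2 motif matches found on the opposite strand, ACGTG, the core bound by the plasma cell factor XBP1, at base 182, and CAGGTG, an E-box bound by E proteins, at base 256:

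Jchain promoter: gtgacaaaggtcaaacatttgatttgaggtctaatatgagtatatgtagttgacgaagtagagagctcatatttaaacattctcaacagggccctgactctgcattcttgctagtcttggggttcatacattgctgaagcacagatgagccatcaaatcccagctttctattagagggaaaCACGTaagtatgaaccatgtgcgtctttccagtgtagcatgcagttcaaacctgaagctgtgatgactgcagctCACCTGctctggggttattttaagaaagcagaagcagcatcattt

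Searched on both strands, ACGTG occurs in 19.6% and CAGGTG in 20.2% of all 32851 windows, so the matches describe the sequence and mark no site. The octamer ATGCAAAT, known from the promoters of immunoglobulin V segments, is not in the window and is found in 1.74% of windows.

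Before the values, 2 wild-type libraries must be described, since they stood apart and carried the highest antibody transcripts. In Nup210+/+ replicate 2, the summed TPM of 6 granulocyte precursor genes (Elane, Mpo, Prtn3, Ctsg, Ms4a3 and Cebpe) was 381.69, against 0.31 to 2.12 in every other library. The same library held 9.07 TPM of the Y-linked genes Ddx3y, Eif2s3y, Kdm5d and Uty in sum, against at most 0.70 elsewhere, together with 36.45 TPM of Xist, the RNA that coats the inactive X chromosome. In Nup210+/+ replicate 4, Xist was at 0.01 TPM, where the 7 remaining libraries had 36.45 to 49.37 TPM, and the Y-linked sum was 0.01 TPM. Replicate 4 thus lacked both kinds of transcript at this level, while its granulocyte precursor sum, 0.31 TPM, was as low as in any library. The part of these features in the antibody transcripts was not tested, and values are given below with and without both libraries.

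**Figure D1:**
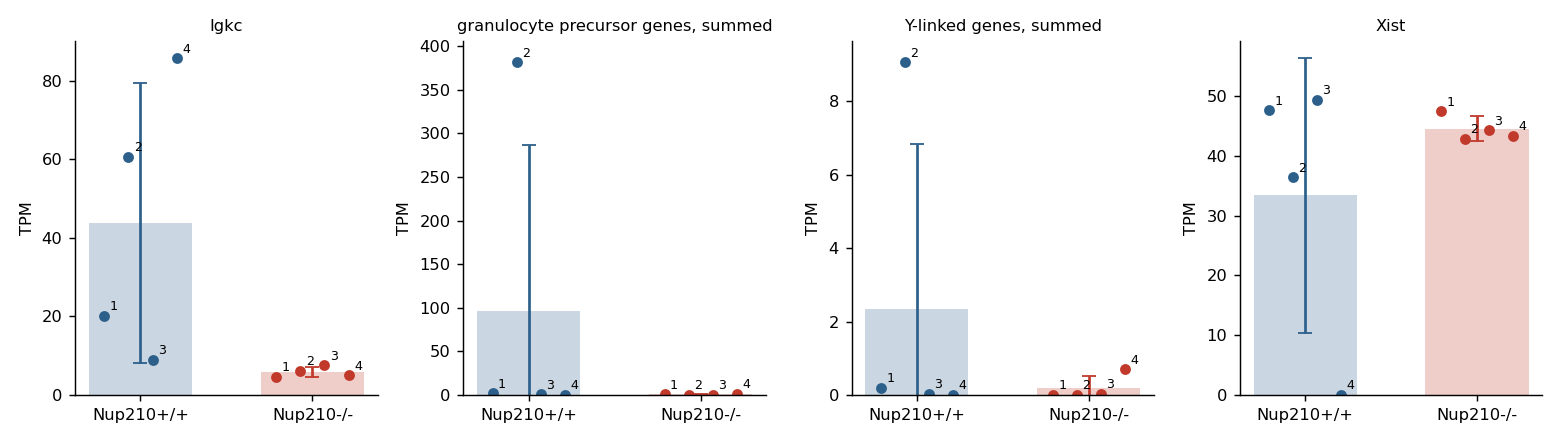
TPM of Igkc, of 6 granulocyte precursor genes in sum, of 4 Y-linked genes in sum and of Xist in each library, with replicate numbers beside the points (bars, mean; lines, SD cut at 0; n = 4 per genotype). Nup210+/+ replicate 2 is the library with granulocyte precursor and Y-linked transcripts, Nup210+/+ replicate 4 is the library with Xist at 0.01 TPM, and these are the 2 libraries with the highest Igkc.

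The tissue was muscle by its defining genes: the summed TPM of Ckm, Acta1, Myh4, Mylpf, Tnnt3 and Atp2a1 was 96089 to 103250 in the knockout and 88391 to 94231 in the wild type, without overlap. All 6 estimates were above 0, 3 of them at an unadjusted p of 0.05 and none at an adjusted p of 0.05 in limma (lowest 0.253, Atp2a1). Of all genes tested, 7% were higher at that unadjusted level, and 51.3% had an estimate below 0. The part of this difference in the antibody transcripts was not tested. Read numbers are not known from TPM, so no counting error can be given for a single value. In bulk tissue, fewer cells of a type and less RNA per cell cannot be told apart.

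Among the light chains, Igkc was at 20.14, 60.66, 8.95 and 85.79 TPM in Nup210+/+ replicates 1 to 4 and at 4.68, 6.17, 7.64 and 5.02 TPM in Nup210-/- replicates 1 to 4. The genotypes did not overlap, but the lowest wild-type library (8.95 TPM) lay close to the highest knockout library (7.64 TPM). Mean Igkc was 43.9 ± 35.7 TPM in the wild type and 5.88 ± 1.34 TPM in the knockout (SD, n = 4), a ratio of 7.47. The wild-type libraries were far more spread out than the 4 knockout libraries. Without Nup210+/+ replicate 4 the ratio was 5.09, without replicate 2 it was 6.52, and without both it was 2.47. The difference of log2(scaled TPM + 1), knockout minus wild type, was -2.18 with a standard error of 0.624.

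The joining chain was high and low in the same wild-type libraries as Igkc. Jchain was at 2.13, 10.10, 1.32 and 9.35 TPM in Nup210+/+ replicates 1 to 4 and at 0.54, 1.03, 0.72 and 0.87 TPM in Nup210-/- replicates 1 to 4. As for Igkc, wild-type replicates 2 and 4 were high, replicate 3 was the lowest of its genotype, and no knockout library reached the wild-type range. The mean was 5.73 ± 4.64 TPM against 0.790 ± 0.209 TPM (SD, n = 4), a ratio of 7.25 with all libraries and 2.18 without wild-type replicates 2 and 4. The log2 difference was -1.55 (standard error 0.503). In proportion, Igkc was 5.77 to 10.6 times Jchain in every library of both genotypes, although each gene varied more than 18-fold across the 8 libraries. This ratio averaged 7.76 ± 2.31 in the knockout and 7.85 ± 1.72 in the wild type (SD, n = 4). The amount of both transcripts differed between libraries more than their proportion, which had a highest over lowest value of 1.84.

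Ighm behaved otherwise. It was the most abundant member, at 62.76, 71.80, 72.26 and 88.92 TPM in Nup210+/+ replicates 1 to 4 and 66.86, 53.62, 55.64 and 65.33 TPM in Nup210-/- replicates 1 to 4. The genotypes overlapped, and across all 8 libraries Ighm varied 1.66-fold, against 18.3-fold for Igkc. The mean was 73.9 ± 10.9 TPM in the wild type and 60.4 ± 6.70 TPM in the knockout (SD, n = 4), a log2 difference of -0.19 (standard error 0.144). Without wild-type replicate 4 the log2 difference was -0.06, and without replicates 2 and 4 it was -0.01. On this length-corrected scale, Ighm exceeded Igkc by 7.28 to 14.3 times in the knockout libraries and by 8.07 times in wild-type replicate 3. In wild-type replicates 2 and 4 both genes were at similar levels, with a ratio of 1.18 and 1.04.

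Of the IgG genes, Ighg2b was at 0.54, 0.91, 0.06 and 5.38 TPM in Nup210+/+ replicates 1 to 4 and at 0.34, 0.28, 0.92 and 0 TPM in Nup210-/- replicates 1 to 4. Only wild-type replicate 4 was high, and the other 3 wild-type libraries lay within the knockout range of 0 to 0.92 TPM. The ratio of the wild-type to the knockout mean, 4.47, became 1.31 without wild-type replicate 4 and 0.779 without replicates 2 and 4, which turns its direction. The log2 difference was -0.65 (standard error 0.508). Ighg2c was at 1.57, 2.87, 1.09 and 2.56 TPM in the wild type and 2.96, 1.13, 1.89 and 2.96 TPM in the knockout, replicates 1 to 4. It did not separate the genotypes in either direction, with means of 2.02 ± 0.833 and 2.24 ± 0.893 TPM (SD, n = 4) and a log2 difference of 0.16 (standard error 0.277).

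Mzb1 was at 0.54, 0.80, 0.37 and 1.71 TPM in Nup210+/+ replicates 1 to 4 and at 0.22, 0.59, 0.38 and 0.55 TPM in Nup210-/- replicates 1 to 4. Wild-type replicate 4 was again the highest library, replicate 3 the lowest of its genotype, and the genotypes overlapped. The ratio of means was 1.97, or 1.05 without wild-type replicates 2 and 4, and the log2 difference was -0.30 (standard error 0.236). Without wild-type replicate 4, neither Mzb1 nor Ighg2b reached the floor for testing.

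Over the 6 genes, the median log2 difference was -0.48, against -0.01 over all 14229 genes tested. It lies midway between Ighg2b (-0.65) and Mzb1 (-0.30), which reached the floor for testing only through Nup210+/+ replicate 4. Igkc and Jchain were the only members whose genotypes did not overlap, both lower in the knockout. Of all genes tested, 6.87% were lower in the knockout without overlap and 1.54% higher. These counts are a description of members chosen from the same contrast.

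**Figure D2:**
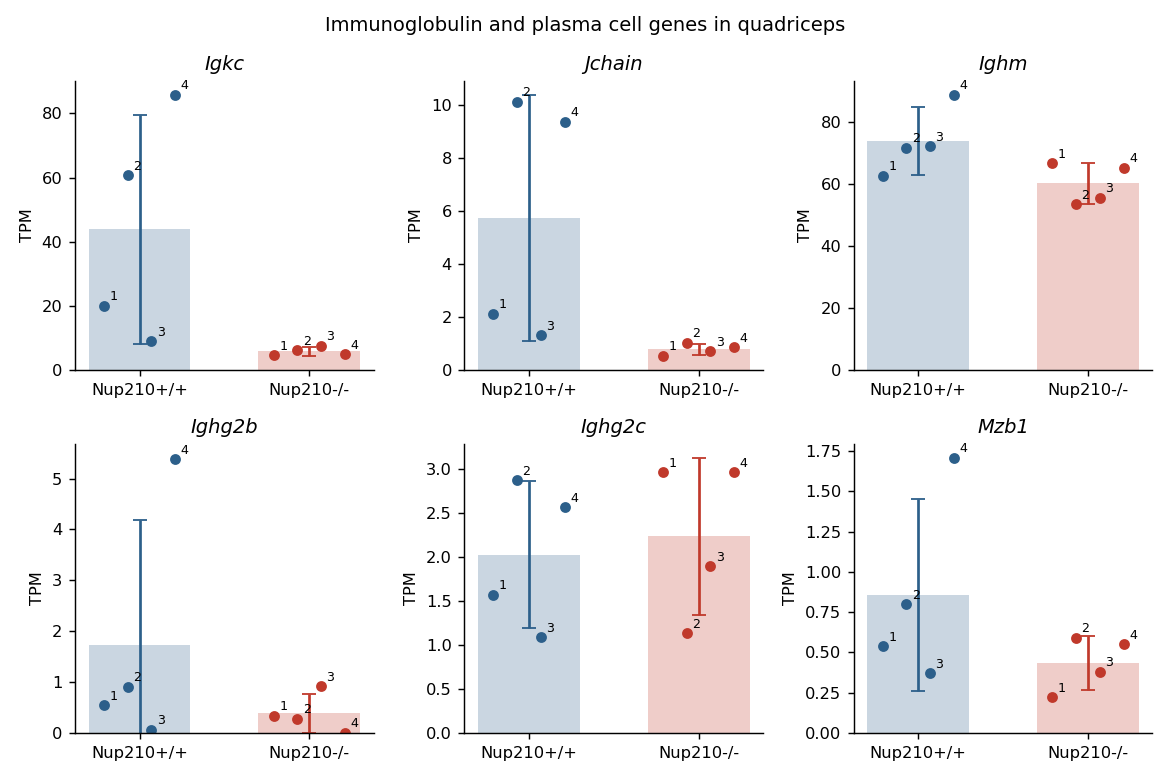
TPM of the 6 genes in each library, with replicate numbers beside the points (bars, mean; lines, SD cut at 0; n = 4 per genotype). Igkc and Jchain are high in Nup210+/+ replicates 2 and 4 and do not overlap between genotypes, Ighm is between 53.62 and 88.92 TPM in all libraries, and Ighg2b is high in Nup210+/+ replicate 4 alone.

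The remaining constant regions were looked at for transcripts of other antibody classes. Read depth is unknown, so a value listed at 0 does not show that a class was absent. Ighg3 (IgG3) was listed at 0 in all 4 knockout libraries and at 0.67, 3.19, 0 and 4.80 TPM in Nup210+/+ replicates 1 to 4. Ighg1 (IgG1), Ighe (IgE) and Iglc4 were listed at 0 in every library. Igha (IgA) was low in both genotypes, with a median of 0.205 TPM in the knockout and 0.385 TPM in the wild type and a highest value of 1.29 TPM in wild-type replicate 2. Ighd (IgD), which marks naive B cells, was at 0.17 to 0.47 TPM in the knockout and 0.24 to 0.63 TPM in the wild type.

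The lambda light chain genes followed the pattern of Igkc at a lower level. Summed over Iglc1 to Iglc4, lambda constant TPM was 1.77, 9.19, 1.00 and 4.24 in Nup210+/+ replicates 1 to 4 and 0, 0, 0.28 and 1.20 in Nup210-/- replicates 1 to 4. Wild-type replicates 2 and 4 were again highest, and the genotypes overlapped through knockout replicate 4. Iglc1 reached 5.22 TPM and Iglc3 2.25 TPM in wild-type replicate 2. Kappa made up 86.8 to 95.3% of light chain constant TPM in the wild type. In the knockout that share was 80.7 to 100%, where 2 libraries had lambda listed at 0. Of the 9 constant region genes outside the members, 4 were tested (Ighg3, Iglc1, Iglc2 and Iglc3). None passed an adjusted p of 0.05 in limma, the lowest being 0.229 for Iglc3, and 3 were lower at an unadjusted p of 0.05. These 4 genes reached the floor for testing only through the wild-type libraries, so their common direction is no further evidence.

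V segments give a view of the same transcripts that does not depend on the constant genes. Of 218 genes annotated as V segments in the table, 25, 58, 9 and 60 were above 0 in Nup210+/+ replicates 1 to 4 and 12, 7, 14 and 4 in Nup210-/- replicates 1 to 4. Wild-type replicates 2 and 4 held the most segments, while wild-type replicate 3 lay within the knockout range. By locus, 42 of 115 heavy chain segments (Ighv) were seen in at least 1 wild-type library and 13 in at least 1 knockout library. For kappa (Igkv) the numbers were 57 and 14 of 100. Wild-type replicates 1 and 3 alone held 9 heavy chain and 22 kappa segments. These are pooled over 2 libraries and the knockout numbers over 4, and a pooled number grows with the libraries, so they cannot be compared directly. In single libraries, wild-type replicates 1 and 3 had 8 and 2 heavy chain segments, against 2 to 6 in the knockout. For kappa they had 16 and 7, against 2 to 8. Read depth per library is unknown, and more segments are seen at a greater depth, so these numbers are not adjusted for it.

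**Figure D3:**
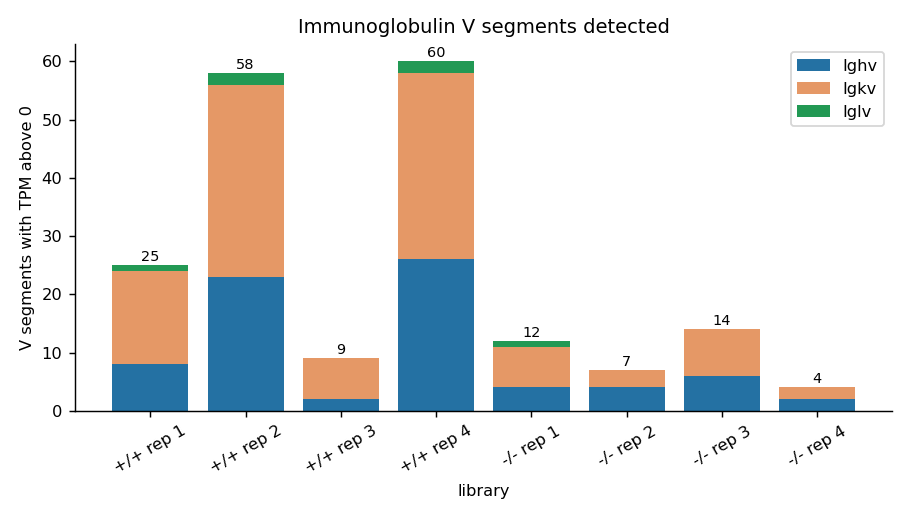
Number of immunoglobulin V segments with TPM above 0 in each library, split into heavy chain (Ighv), kappa (Igkv) and lambda (Iglv) segments. Nup210+/+ replicates 2 and 4 have 58 and 60 segments, and the other 6 libraries have 4 to 25.

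In the wild-type libraries with high levels, the heavy chain and kappa signal was spread over many segments. In wild-type replicate 2 the leading kappa segment was Igkv5-48, at 10.91 TPM or 19.5% of Igkv TPM, and the leading heavy chain segment was Ighv1-53, at 3.72 TPM or 19.0% of Ighv TPM. In wild-type replicate 4 the leaders were Igkv8-16 (8.72 TPM, 14.1%) and Ighv8-12 (3.15 TPM, 13.6%). They shared 16 kappa segments above 0, which is 16 of 33 in replicate 2 and 16 of 32 in replicate 4. In libraries with low levels, the share of the leading segment varied. The leading kappa segment held 88.7% of Igkv TPM in knockout replicate 4 and 81.8% in knockout replicate 2, where it was Igkv10-96, but 29.98% and 27.2% in knockout replicates 1 and 3. In wild-type replicate 3, Ighv10-1 held 66.1% of Ighv TPM. Among heavy chain segments, Ighv11-2, a segment known from B-1 cells, was seen in 3 of 4 knockout libraries, with 2.67 TPM and 86.4% of Ighv TPM in knockout replicate 4, and in 1 wild-type library at 0.73 TPM. Of the other segments with the highest means, Igkv8-19 reached 10.64 TPM in wild-type replicate 2 and 0.39 TPM in knockout replicate 1. Ighv1-26 was at 0.81, 1.71 and 1.71 TPM in wild-type replicates 1, 2 and 4 and listed at 0 elsewhere. Of 3 lambda segments, Iglv2 reached 2.73 TPM in wild-type replicate 4 and Iglv1 2.68 TPM in wild-type replicate 2.

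Summed V segment levels were then set beside the constant regions they are joined to. Summed Igkv was 10.1, 55.9, 6.18 and 62.0 TPM in Nup210+/+ replicates 1 to 4 and 4.17, 4.18, 8.52 and 3.19 TPM in Nup210-/- replicates 1 to 4. Igkc stayed at 0.897 to 1.99 times summed Igkv in all 8 libraries. Summed Ighv was 4.77, 19.6, 1.09 and 23.2 TPM in the wild type and 1.16, 2.35, 2.75 and 3.09 TPM in the knockout. Ighm exceeded summed Ighv by 3.67 and 3.83 times in wild-type replicates 2 and 4, by 13.2 times in replicate 1 and by 66.3 times in replicate 3. In the knockout this ratio was 20.2 to 57.6. The ratio of constant to V level varied 2.22-fold over the 8 libraries for kappa and 18.1-fold for Ighm. J segments were listed at 0 in all libraries.

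**Figure D4:**
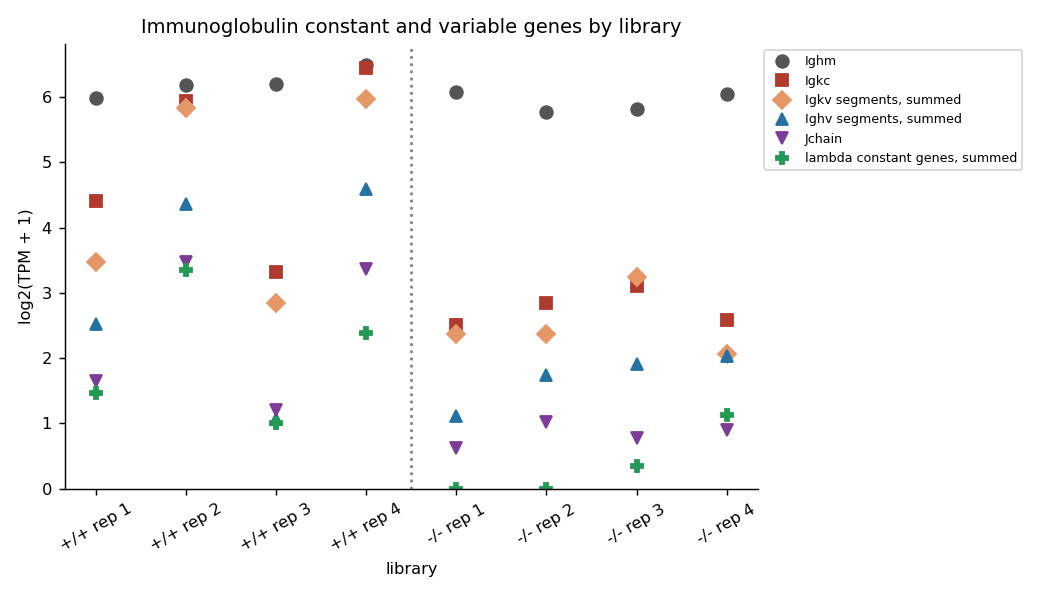
Levels as log2(TPM + 1) of Ighm, Igkc, Jchain, the lambda constant genes in sum and the Igkv and Ighv segments in sum, for each library (Nup210+/+ left and Nup210-/- right of the dotted line). Igkc, Jchain and the V segments are highest together in Nup210+/+ replicates 2 and 4, while Ighm varies 1.66-fold over the 8 libraries.

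Genes of the B cell lineage and its surroundings outside the 6 members were compared by limma on log2(scaled TPM + 1), with Benjamini-Hochberg adjustment over all 14229 genes tested. Of 94 listed genes, 53 were tested. None passed an adjusted p of 0.05 in limma, where 0.112% of all genes did (0.0633% lower and 0.0492% higher in the knockout), and 18 were lower and 1 higher in the knockout at an unadjusted p of 0.05. Over all genes tested, 7.18% were lower and 7% higher at that level. The estimate was below 0 for 46 of the 53, or 86.8%, against 51.3% of all genes, with a median log2 difference of -0.27. In 12 of them, or 22.6%, every knockout library lay below every wild-type library, against 6.87% of all genes. The list of general endoplasmic reticulum genes, described below, made up 7 of these 12 and 8 of the 18 lower at an unadjusted p of 0.05. Creld2 and Sdf2l1, general endoplasmic reticulum genes on the plasma cell list, were also among the 12. With Edem1, they were also among the 18. Of the 53, 6 reached the floor only through the wild type (Ighg3, Iglc1, Iglc2, Iglc3, Tnfrsf13b and Fcer1a), so their direction was set by that. With a mean of at least 0.5 TPM asked of each genotype, a choice made after seeing the data, 40 of 47 had an estimate below 0, or 85.1% against 50.2% of all genes, with a median of -0.17, and 15 were lower at an unadjusted p of 0.05, against 7.15% of all genes. Without wild-type replicates 2 and 4, none of 47 passed the adjusted p, 13 were lower at an unadjusted p of 0.05, against 8.70% of all genes, and 24 did not overlap, or 51.1% against 25.3% of all genes.

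The plasma cell list spans genes at low levels and genes that many secretory cells use at high levels. Sdc1, the syndecan on the plasma cell surface, was at 1.20 to 1.71 TPM in the knockout and 1.61 to 1.94 TPM in the wild type. Prdm1, the regulator that sets plasma cell identity, was at 0.07 to 0.29 and 0.15 to 0.35 TPM, and Tnfrsf17, the receptor for plasma cell survival factors, at 0 to 0.31 and 0.15 to 0.38 TPM. Xbp1, the transcription factor of the secretory program that many tissues also express, was at 52.58 to 62.49 TPM in the knockout and 50.80 to 75.77 TPM in the wild type. All 4 overlapped between genotypes. Of 20 genes on the list, 15 were tested and 4 were lower at an unadjusted p of 0.05 in limma: Edem1, Creld2, Sdf2l1 and Fam46c. Of all genes, 7.18% were lower at that level. The largest difference was in Edem1, which acts in disposal of misfolded glycoproteins, at 3.69 ± 1.45 TPM against 7.74 ± 3.01 TPM (SD, n = 4), a log2 difference of -0.79 (standard error 0.286, limma adjusted p = 0.267). At the other end was Ell2, an elongation factor used for secretory immunoglobulin mRNA, with 0.10 (standard error 0.122, limma adjusted p = 0.747). The most abundant was Ssr4, a translocon subunit, at a log2 difference of -0.09 (limma adjusted p = 0.811). Tnfrsf13b (TACI) and Fkbp11, a folding enzyme of secretory cells, were highest in wild-type replicate 2, at 2.85 and 7.33 TPM, against at most 0.87 and 1.04 TPM elsewhere.

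B cell genes were near the bottom of the measured range. Ms4a1 (CD20) was at 0 to 0.35 TPM over the 8 libraries, highest in wild-type replicate 2, and Pax5 was at 0.01 to 0.17 TPM, highest in wild-type replicate 4. Only 4 of 22 listed genes were tested. Cd37, a tetraspanin of mature B cells that other leukocytes also carry (1 of 2 entries of that name), was at 1.09 ± 0.168 TPM in the knockout and 3.48 ± 2.41 TPM in the wild type (SD, n = 4), a log2 difference of -0.90 (standard error 0.300, limma adjusted p = 0.232). Bank1, an adaptor of B cell receptor signaling, had the smallest difference, -0.22 (limma adjusted p = 0.561). Cd74, the invariant chain of class II antigen presentation and the most abundant gene on the list, was at 106.7 and 153.9 TPM, a log2 difference of -0.39 (limma adjusted p = 0.243). Without Cd74, the summed TPM of the other 21 B cell genes was at most 3.60 in the knockout and 7.48, 16.29, 5.91 and 5.35 in wild-type replicates 1 to 4. Cd37 weighed most in these sums, at 3.03, 6.97, 2.40 and 1.51 TPM in wild-type replicates 1 to 4. The order of replicates 3 and 4 in the sum depended on it. Among B cell precursor genes, Rag1 and Rag2 were listed at 0 in all libraries, and the sum of 9 genes was 5.97 to 8.24 TPM in the knockout and 6.37 to 13.36 TPM in the wild type, mostly Cd93, which endothelial cells also express (log2 difference -0.12, limma adjusted p = 0.817).

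The endoplasmic reticulum machinery on which antibody secretion depends is used by every secretory cell and by muscle fibers. Of 16 such genes, all tested, 8 were lower at an unadjusted p of 0.05 in limma, as were 7.18% of all genes. In 7 the knockout lay below the wild type without overlap, as in 6.87% of all genes. The median log2 difference was -0.26. Hspa5 (BiP), the chaperone that holds unassembled heavy chains, was the most abundant, at 130.9 TPM in the knockout and 176.0 TPM in the wild type, a log2 difference of -0.33 (standard error 0.0530, limma adjusted p = 0.0552). Manf had the largest difference, -0.66 (standard error 0.124, limma adjusted p = 0.0911), and Ssr3 the highest, 0.09 (limma adjusted p = 0.552). Hsp90b1 (GRP94) had a log2 difference of -0.49 and the lowest adjusted p of any gene on the lists (limma adjusted p = 0.0540). With TPM as deposited, Hspa5 and Hsp90b1 passed an adjusted p of 0.05, and with library weights Manf did too.

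Antibody receptors showed a similar direction, with all 6 tested estimates below 0 of 9 genes listed, against 51.3% of all genes. Fcer1a, 1 of the 6, reached the floor for testing only through the wild type. Fcgr3, an activating IgG receptor of macrophages and other myeloid cells, was at 6.69 and 14.3 TPM without overlap, a log2 difference of -0.86 (standard error 0.215, limma adjusted p = 0.154), and no other gene of the list passed an unadjusted p of 0.05. Fcgrt, the neonatal Fc receptor that recycles IgG and the most abundant of the list, was at -0.05 (limma adjusted p = 0.885), and Fcgr1 at -0.01 (limma adjusted p = 0.990). Of 10 survival and homing factors of the B lineage, 7 were tested, with a median log2 difference of -0.02. Cxcl12, the chemokine that retains plasma cells in bone marrow, was the most abundant and had -0.09 (limma adjusted p = 0.552), its receptor Cxcr4 -0.47 (limma adjusted p = 0.518), and the adhesion molecule Vcam1 0.24 (limma adjusted p = 0.267).

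**Figure D5:**
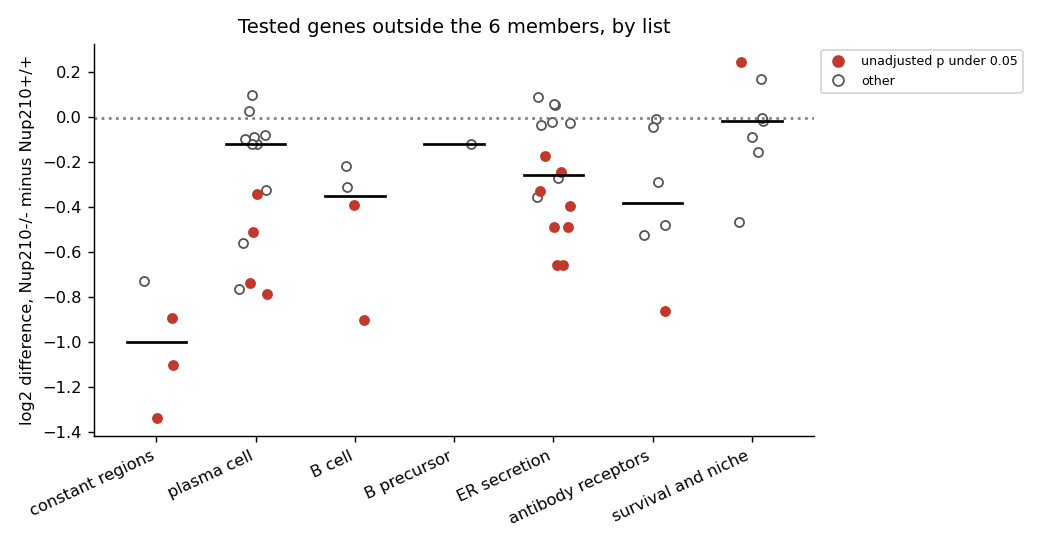
Log2 difference, knockout minus wild type, of each tested gene outside the 6 members, by list (points, genes; filled, unadjusted p under 0.05 in limma; black bars, list medians; dotted line, median of all tested genes, -0.01). Most points lie below the dotted line, Ighg3 and Iglc1 lowest, and no gene passed an adjusted p of 0.05. The value of Ighg3, listed at 0 in the knockout, depends on the pseudocount and is no bound.

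Marker lists of other cells were summed in the same way, and the lowest limma adjusted p of any of their genes was 0.126 (Lyz2). The macrophage and T cell sums did not overlap between genotypes, and the other sums did. Macrophage genes summed to 179.0 to 204.2 TPM in the knockout and 212.7 to 449.7 TPM in the wild type. The estimate was below 0 for all 8, among them Csf1r, Cd68 and Lyz2, against 51.3% of all genes. Of the 8, 6 were lower at an unadjusted p of 0.05 in limma, against 7.18% of all genes. In 5 the knockout lay below the wild type without overlap, against 6.87% of all genes. The median log2 difference of the macrophage genes was -0.46. T cell genes summed to 0.79 to 2.20 TPM and 2.58 to 4.69 TPM, where 1 of 9 was tested. The order within the wild type differed from that of Igkc: the macrophage sum was highest in replicate 3, which had the least Igkc, and lowest in replicate 4, which had the most. Neutrophil genes summed to 1.45 to 3.46 TPM in the knockout and 1.33 to 20.85 TPM in the wild type, with replicate 2 the high one. Of 5 lymph node stroma genes, Glycam1 and Madcam1 were listed at 0 in every library and the sum, nearly all Ccl21a, was 25.01 to 34.81 TPM and 33.80 to 46.89 TPM. Red cell genes summed to 879.8 to 2688 TPM in the knockout and 1216 to 5305 TPM in the wild type, highest in replicate 2. Mast cell genes (34.4 to 45.8 against 42.8 to 72.4 TPM) and adipocyte genes (386.5 to 540.5 against 387.4 to 915.9 TPM) were both highest in wild-type replicate 3. The part of these cells in the antibody transcripts was not tested.

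Finally, the tested genes outside the immunoglobulin loci were ranked by how closely they followed the mean of the 6 members over the 8 libraries. The measure was Pearson r on log2(scaled TPM + 1). It is given as a description, since the libraries share their genotypes and the 2 highest libraries weigh most. One entry named Kantr, with no established product, was first with r of 0.990, at 0.69 to 0.76 TPM in the knockout and 1.04, 1.48, 0.88 and 1.62 TPM in wild-type replicates 1 to 4, while another entry of that name overlapped between genotypes. The small nucleolar RNAs Gm22422 and Gm26247 and the pseudogene Gm15181 followed, all listed at 0 outside wild-type replicates 2 and 4. Surf2 (r of 0.943, 11.8 and 13.3 TPM in knockout and wild type), Tspan11 (0.942), Gm16062 (0.933), Gpbp1 (0.932), Gm37401 (0.928) and Gm11274 (0.927) completed the first 10. No gene of the plasma cell or B cell lists was among them. Only 15 of 20 plasma cell genes and 4 of 22 B cell genes were tested and could be ranked, and the members were left out.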

How the data were processed

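Quadriceps polyadenylated RNA of 4 Nup210-/- and 4 Nup210+/+ mice was made into directional libraries and read from one end. The authors trimmed reads with cutadapt 2.3, aligned them to mm10 with STAR 2.7.0d and quantified genes with RSEM 1.3.1 with an Ensembl annotation that differs in version from the one used here for positions. They deposited TPM per gene and library (47643 genes), without pooling. TPM are divided by transcript length and have a fixed sum in each library, so an abundant gene lowers the others and depth is unknown. The study tested estimated counts with DESeq2, which TPM do not allow. Windows shared between V segments were not examined.

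Libraries were scaled by the median of ratios over the 15225 genes above 0 in all of them. Log2(scaled TPM + 1) was compared for 14229 genes, those whose mean reached 0.5 TPM, with limma 3.58.1 in R 4.3.3 (eBayes with trend, genotype as the only term, two-sided, Benjamini-Hochberg over all genes). The fit was tested on simulated data. Differences on this scale understate those of low genes. Every sample was a different mouse by the number of mice in the methods of the study. The genotypes share replicate numbers that the sources tie to nothing, so libraries were not paired.

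Members and gene lists were chosen with earlier results of these data known. The rule for named genes took the members, the constant regions, in each list the genes with the most positive and most negative difference and the highest mean, the 3 highest V segments of each locus and the 10 genes most like the members. Genes named beside these were chosen after their values were seen. Positions and 75-base windows are from GENCODE M21 (GRCm38). Alternatives are given in the closing section. Plots were made in Python 3.11.15 (matplotlib 3.10.9).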

Additional observations from a re-analysis of the deposited data

Results flagged for a closer look

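A library was marked where it lay far outside the other 3 of its genotype, measured by the distance to its neighbour as a share of the whole spread. Chance marks about 1 group in 20. Of 51 groups examined, 8 were marked, and some measures were picked with the data in view. Ighg2b in Nup210+/+ replicate 4 was 5.38 TPM against at most 0.91 TPM (gap 0.84 of the range). In the knockout, Iglc1 was above 0 in replicate 3 only (0.28 TPM), Iglc2 and Iglc3 in replicate 4 only (0.90 and 0.30 TPM), each a gap of 1, which is fixed where 3 of 4 libraries are listed at 0, so that the share chance gives does not hold for them. In Nup210+/+ replicate 2 the gaps were 0.995 for granulocyte precursor genes, 0.902 for neutrophil genes and 0.979 for Y-linked genes. In Nup210-/- replicate 4 the Y-linked sum was 0.70 TPM against 0 to 0.03 TPM (gap 0.957).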

How the results depend on the processing

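The members' median log2 difference was below 0 in every setting that gave one, from -0.93 with a pseudocount of 0.1 to -0.38 with library weights, and from -0.71 to -0.43 when one library was left out. No median was computed with a mean TPM of at least 1, where Mzb1 fell under the floor. None was computed without Nup210+/+ replicate 4, without both Nup210+/+ replicates 2 and 4, or with 0.5 TPM asked of each genotype. In those settings both Mzb1 and Ighg2b fell under the floor. Ighg2c reversed without Nup210+/+ replicate 3 (-0.027). Without both Nup210+/+ replicates 2 and 4, an alternative chosen after seeing the data, Igkc was -0.96, Jchain -0.52 and Ighg2c 0.53, and 12 of all genes passed the adjusted p. Among the listed genes outside the members, limma called 0, but 2 with TPM as deposited (Hsp90b1 and Hspa5) and 3 with library weights (also Manf), all of the secretory machinery that other cells use too. TPM as deposited moves the median of all genes to -0.085 (log2). Leaving out one library kept 0 calls, with 13 (without Nup210+/+ replicate 2) to 22 (without Nup210+/+ replicate 3) past an unadjusted p of 0.05, against 19 with all. Over all genes, 16 calls became 1 without a filter, 0 with a mean TPM of at least 0.1, 27 with at least 1, 0 with upper quartile scaling, 0 without trend and 84 with library weights. Leaving out any one of the 8 libraries gave 0 to 10. With the replicate number as a block, 0 of all genes and 0 listed genes passed (18 past an unadjusted p of 0.05), where deviations of same-numbered libraries correlated by -0.033 to 0.086 and so gave no pairs, and the members' median stayed at -0.48. The cause of these changes was not tested. Unknown depth limits what low values can show.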
